A study of Mus musculus with 5 samples.

Results

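The fibroblast growth factor (FGF) receptor genes Fgfr1, Fgfr2 and Fgfr3 and the ligand genes Fgf2, Fgf7, Fgf10 and Fgf18 were described in Prx1-derived cells of mouse skeletal muscle. They are 7 genes, 3 receptors and 4 ligands, taken by name from the 31055 genes of each count matrix. No rule on measured values chose them, but earlier results of these data were known. The cells were GFP+ cells sorted from the hindlimb muscles of adult Prx1Cre;mTmG mice on a C57Bl/6 background and profiled by droplet single-cell RNA sequencing (scRNAseq) of transcript 3′ ends. In these mice Cre driven by the Prx1 promoter, active in the limb mesenchyme, switches a cell and its descendants from a red to a green membrane protein, so that GFP marks the Prx1 lineage. Every group, controls included, carried both alleles. The 5 conditions were uninjured muscle (d0), muscle at d3 and d5 post-fracture, and muscle at d3 and d5 post-polytrauma. Fracture here was a non-stabilized fracture of the tibia, and polytrauma added a mechanical injury of the muscles beside it. The muscles around the tibia were dissected away from periosteum and bone marrow. Cells of 2 mice were pooled for each library. With 1 library per condition there was no replicate, and differences are described without a test. The 95% intervals cover counting error only, and mice, libraries and conditions cannot be told apart.

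FGFs are secreted proteins that bind receptor tyrosine kinases on the cell surface together with heparan sulfate. Active receptors signal through the adaptor FRS2 to the MAP kinase pathway, which induces transcription factors of the ETV family and feedback inhibitors such as the Sprouty proteins and DUSP6. FGFR1 is the receptor of many mesenchymal progenitors, FGFR2 occurs in epithelia (as the splice form that binds FGF7 and FGF10) and in osteogenic mesenchyme, and FGFR3 is known from growth plate cartilage, where it restrains chondrocyte proliferation. Counts of transcript 3′ ends do not separate the splice forms of the receptors. FGF2 lacks a classical secretion signal, FGF7 and FGF10 are mesenchymal ligands for epithelia, and FGF18 acts on cartilage and bone.

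The regions upstream of Fgfr3, Fgf10 and Fgf18 are shown as examples. By the 2-fold call used below, these genes were higher at d5 post-fracture than at d3 post-fracture and at d5 post-polytrauma. The same held for Fgfr2 and Fgf7, whose regions are not printed. Each printed region is the 200 bases before the most upstream start in the table, read 5′ to 3′ on the strand of the gene, from RefSeq on GRCm38.p6, the assembly of mm10. Capitals mark the GC box GGGCGG on either strand, a short motif bound by Sp family factors.
Fgfr3, chr5:33721524-33721723, plus strand: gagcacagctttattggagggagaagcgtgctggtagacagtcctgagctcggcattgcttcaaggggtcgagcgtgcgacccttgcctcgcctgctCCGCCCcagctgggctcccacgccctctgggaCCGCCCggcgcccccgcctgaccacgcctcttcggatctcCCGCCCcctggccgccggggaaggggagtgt
Fgf10, chr13:118714499-118714698, plus strand: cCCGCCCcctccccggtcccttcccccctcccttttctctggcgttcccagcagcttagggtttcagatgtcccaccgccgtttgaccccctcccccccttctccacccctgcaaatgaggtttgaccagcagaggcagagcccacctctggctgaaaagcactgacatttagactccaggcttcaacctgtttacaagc
Fgf18, chr11:33147401-33147600, minus strand: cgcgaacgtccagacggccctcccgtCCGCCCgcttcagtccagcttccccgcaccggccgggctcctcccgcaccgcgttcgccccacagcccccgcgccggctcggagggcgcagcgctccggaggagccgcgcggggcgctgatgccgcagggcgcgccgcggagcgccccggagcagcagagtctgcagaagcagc
For Fgfr3 the table lists a second start, whose 200 bases (chr5:33722106-33722305) hold 2 GC boxes and are not printed. The printed Fgfr3 sequence holds 3 GC boxes and the other two hold 1 each, and their G and C content is 69.5% for Fgfr3, 60.0% for Fgf10 and 78.5% for Fgf18. A GC box was found in 31.0% of the 32851 promoters of that length in the table. Neither the TATA box TATAAA (9.96% of promoters) nor the SOX core ACAAAG (13.3%), each searched on both strands and with no overlap with the GC box, was found in these 3 sequences. The same search gave 1 GC box for Fgf2 and 0 for Fgf7 and for Fgfr2. The promoter table used here had no entry for Fgfr1.

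The genes lie on 7 chromosomes of GRCm38.p6: Fgfr1 at chr8:25518759-25575718, Fgfr2 at chr7:130162451-130266808 (minus strand), Fgfr3 at chr5:33721724-33737068, Fgf2 at chr3:37348477-37410106, Fgf7 at chr2:126034658-126091185, Fgf10 at chr13:118714699-118792573 and Fgf18 at chr11:33116970-33147400 (minus strand). No other gene of the matrix overlaps them on the same strand. Antisense genes of the matrix overlap Fgfr1 (Gm16159), Fgf2 (Fgf2os and Nudt6), Fgf7 (Fam227b) and Fgf10 (Gm16263). Cell Ranger with its default settings, as the methods name it, counts reads on the sense strand of a gene, which separates these genes from their antisense partners.

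The conditions of 2 libraries were not taken from their deposited labels. The library deposited as d3 post-polytrauma holds 2001 barcodes and the library deposited as d5 post-fracture holds 6915. Set against the cell numbers published with the study, the first matched d5 post-fracture by its number of barcodes, and the second was then used as d3 post-polytrauma. Every result that involves either of these libraries rests on this exchange. Under the deposited labels, the values given below for d5 against d3 post-fracture are those of d3 post-polytrauma against d3 post-fracture and the reverse. Likewise those for d5 post-polytrauma against d5 post-fracture and for d5 against d3 post-polytrauma change places, for the pathway genes as for the members.

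In all, 29831 of 34439 barcodes (86.6%) were retained, with 1468 to 11941 cells per library. Summed unique molecular identifiers (UMIs) ranged from 17437190 at d0 to 202233564 at d5 post-polytrauma, and the median per cell ranged from 3640 at d0 to 34949 at d5 post-fracture. EGFP was detected in 97.3% to 99.2% of cells. The summed level of 6 hematopoietic markers was 12.9 to 54.5 CPM (UMIs per 1000000 of the library), highest at d3 post-polytrauma, and that of 4 endothelial markers 2.20 to 11.6. Of the 4 myogenic markers, Pax7 and Myf5 were at 0 at d0, d3 and d5 post-fracture, and all 4 together summed to at most 2.01. Chondrocyte markers, of which 6 were in the matrix and which include Sox9, Col2a1 and Acan, summed to 79.4 at d0, 124 at d3 post-fracture, 2994 at d5 post-fracture, 117 at d3 post-polytrauma and 311 at d5 post-polytrauma. Cells with UMIs of at least 2 of 4 division genes made up 0.0864% of cells at d0 and 26.4% to 37.4% after injury. The parts of depth, cell types and division in the differences between libraries were not tested beyond the values given beside each result. The d5 libraries have 944 barcodes in common, and d0 has 405 and 525 in common with the d3 libraries. The d3 libraries have 508 in common with each other. Between a d5 and a d0 or d3 library at most 3 were in common. The barcode set and the time from d3 to d5 cannot be told apart.

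Levels are given as CPM, the UMIs of a gene summed over the retained cells per 1000000 summed UMIs of the library. Since one UMI stands for one captured 3′ end, levels need no correction for transcript length, and the 3′ annotation of a gene still affects them. Fgfr1 was by far the most abundant receptor transcript. Its level was 281 CPM (interval 274 to 289) at d0, 158 (156 to 161) at d3 post-fracture, 204 (200 to 208) at d5 post-fracture, 205 (202 to 208) at d3 post-polytrauma and 206 (204 to 208) at d5 post-polytrauma, from 94174 UMIs in all. By CPM it was highest in uninjured muscle and lowest at d3 post-fracture, and the intervals of the other three libraries overlapped. Orders and overlaps of levels, here and for the other genes, are those of CPM. With median-of-ratios scaling (defined below) Fgfr1 was lower at d5 than at d3 post-fracture (log2 ratio -0.37). In the FAP/MP-like clusters described below it was higher at d3 post-polytrauma (375 CPM) than at d0 (329). No pair of libraries in the 5 comparisons below differed by the 2-fold that was used here as a call. For shares of cells, those with at least 2000 UMIs were thinned to 2000 and the others left out, so that 3888 of 4632 cells were used at d0. Fgfr1 was then detected in 39.2% of cells at d0, 26.1% at d3 post-fracture, 32.0% at d5 post-fracture, 35.8% at d3 post-polytrauma and 33.6% at d5 post-polytrauma. Without thinning the shares were 55.7%, 81.2%, 90.3%, 88.1% and 86.7%, lowest in d0, the shallowest library, and highest in d5 post-fracture, the deepest.

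Fgfr2 was low in 4 of the 5 libraries. Its level was 3.38 CPM (2.58 to 4.36) at d0, 3.62 (3.26 to 4.02) at d3 post-fracture, 35.3 (33.7 to 37.0) at d5 post-fracture, 4.02 (3.64 to 4.42) at d3 post-polytrauma and 6.68 (6.32 to 7.04) at d5 post-polytrauma. The intervals of d0 and both d3 libraries overlapped, d5 post-polytrauma lay above them, and d5 post-fracture stood apart. At 2000 UMIs per cell 6.82% of d5 post-fracture cells held an Fgfr2 UMI, against 0.643% to 1.71% in the other 4 libraries (48.8% against 1.14% to 9.37% without thinning).

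Fgfr3 differed the most between libraries of the receptors as a ratio, though not in CPM. It was at 1.66 CPM (1.11 to 2.39) at d0, 1.16 (0.959 to 1.39) at d3 post-fracture, 27.5 (26.1 to 28.9) at d5 post-fracture, 0.591 (0.452 to 0.759) at d3 post-polytrauma and 2.67 (2.44 to 2.90) at d5 post-polytrauma. The intervals of d0 and d3 post-fracture overlapped, d3 post-polytrauma was lowest, and d5 post-polytrauma lay between these and d5 post-fracture. The d0 value rests on 29 UMIs and the d3 post-polytrauma value on 61. An Fgfr3 UMI was found in 4.03% of thinned cells at d5 post-fracture and in 0.164% to 0.547% of those of the other 4 libraries (18.5% against 0.626% to 2.64% without thinning).

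**Figure D1:**
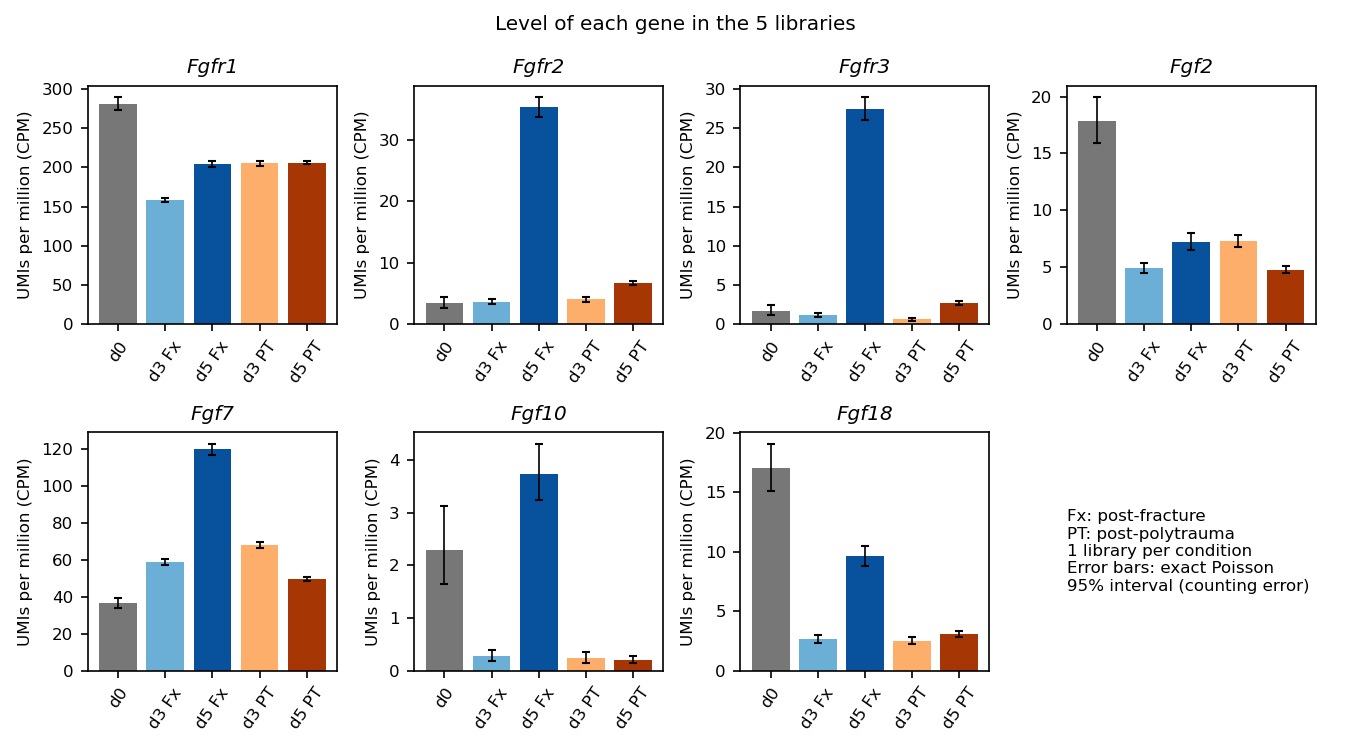
Level of each gene in the 5 libraries, in CPM (linear axis from 0, 1 panel per gene; Fx, post-fracture; PT, post-polytrauma), with 95% Poisson intervals as error bars. Fgfr2 and Fgfr3 reach 35.3 and 27.5 at d5 post-fracture and stay at or under 6.68 elsewhere, while Fgf2 and Fgf18 are highest at d0 (17.8 and 17.0).

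Of all UMIs of the 3 receptor genes, Fgfr1 held 98.2% at d0, 97.1% at d3 post-fracture, 97.8% at d3 post-polytrauma and 95.7% at d5 post-polytrauma. At d5 post-fracture it held 76.5% (exact binomial interval 75.7% to 77.2%), Fgfr2 13.2% and Fgfr3 10.3%. Fgfr1 was thus the major receptor transcript of each library, with a smaller share at d5 post-fracture than elsewhere.

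Among the ligands, Fgf7 was the most abundant in every library. Its level was 36.6 CPM (33.8 to 39.5) at d0, 58.8 (57.3 to 60.3) at d3 post-fracture, 120 (117 to 123) at d5 post-fracture, 67.8 (66.2 to 69.4) at d3 post-polytrauma and 49.5 (48.6 to 50.5) at d5 post-polytrauma. No 2 of these intervals overlapped, and the order ran from d0 through d5 post-polytrauma, d3 post-fracture and d3 post-polytrauma to d5 post-fracture. At 2000 UMIs per cell 7.02% of cells at d0 held an Fgf7 UMI, 11.5% at d3 post-fracture, 16.6% at d5 post-fracture, 11.4% at d3 post-polytrauma and 8.63% at d5 post-polytrauma (11.1%, 45.7%, 64.2%, 46.4% and 37.6% without thinning).

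Fgf2 was highest in uninjured muscle. It was at 17.8 CPM (15.9 to 19.9) at d0, 4.92 (4.50 to 5.38) at d3 post-fracture, 7.25 (6.54 to 8.02) at d5 post-fracture, 7.32 (6.81 to 7.86) at d3 post-polytrauma and 4.78 (4.48 to 5.09) at d5 post-polytrauma. By CPM the 4 injured libraries fell into 2 pairs with overlapping intervals, d3 post-fracture with d5 post-polytrauma and d5 post-fracture with d3 post-polytrauma. Median-of-ratios size factors, relative to the library total, were 0.767 and 1.11 in the first pair and 1.28 and 0.792 in the second. The pairing thus depends on the scaling. Thinned shares were 3.19% of cells at d0 and 1.08% to 1.65% in the injured libraries, while unthinned shares were 6.00% at d0 and 6.83% to 18.7% after injury.

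Fgf18 was also highest at d0, at 17.0 CPM (15.2 to 19.1). It was at 2.63 (2.32 to 2.97) at d3 post-fracture, 9.60 (8.78 to 10.5) at d5 post-fracture, 2.50 (2.20 to 2.82) at d3 post-polytrauma and 3.06 (2.82 to 3.31) at d5 post-polytrauma. Neighbours in the order of the lowest 3 libraries had overlapping intervals, and d5 post-fracture lay between them and d0. Thinned shares were 3.06% of cells at d0, 2.09% at d5 post-fracture and 0.608% to 0.783% in the other 3 libraries (5.70%, 16.1% and 3.98% to 4.37% without thinning).

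Fgf10 was the rarest of the 7 genes, with 327 UMIs in all. It was at 2.29 CPM (1.64 to 3.12) at d0, 0.270 (0.178 to 0.393) at d3 post-fracture, 3.74 (3.23 to 4.31) at d5 post-fracture, 0.232 (0.149 to 0.346) at d3 post-polytrauma and 0.208 (0.150 to 0.281) at d5 post-polytrauma. The low group of 3 libraries had overlapping intervals, and d5 post-fracture lay above d0. The values of the low group rest on 24 to 42 UMIs each, and at 2000 UMIs per cell at most 0.0521% of their cells held one, against 0.514% at d0 and 0.278% at d5 post-fracture.

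Of the UMIs of the 4 ligand genes, Fgf7 held 49.6% at d0, Fgf2 24.2%, Fgf18 23.1% and Fgf10 3.11%. After injury Fgf7 held 85.3% to 88.3%. Fgf2 then held 5.17% to 9.40%, Fgf18 3.21% to 6.84% and Fgf10 0.299% to 2.67%. Fgf1, a ligand outside these 4, was at 32.9 CPM at d0, close to Fgf7, and at 0.440 to 2.08 after injury.

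As a reference for free RNA in the droplets, the members were counted in thinned cells with UMIs of at least 3 hematopoietic markers, a type outside the Prx1 lineage. At d3 post-polytrauma 77 such cells (median 4271 UMIs, against 15803 for all thinned cells) held Fgfr1 in 6.49% (5 cells) and Fgf7 in 2.60% (2 cells). The other 5 genes were found in 0 of these 77 cells, for which 3 counts give a limit of 3.90% and the exact 95% upper bound is 4.68%. The shares of Fgfr2, Fgfr3, Fgf2, Fgf10 and Fgf18 in that library are all under these limits, so they cannot be separated from free RNA by this count. In the other libraries there were 3 to 22 hematopoietic cells of this kind, too few for such a limit.

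The comparison of d3 post-fracture with d0 addresses the early response to fracture. None of the 7 genes was at least 2-fold higher, and 3 were at least 2-fold lower. Of 13088 genes with at least 50 UMIs in both libraries together, 13.0% were at least 2-fold higher and 31.1% at least 2-fold lower. The lower genes were ligands. Fgf2 fell 3.62-fold (log2 ratio -1.86, interval -2.06 to -1.65), Fgf18 fell 6.47-fold (-2.69, -2.94 to -2.45) and Fgf10 fell 8.49-fold (-3.09, -3.85 to -2.35). Fgf7 had a log2 ratio of 0.68 (0.57 to 0.80) and the receptors had -0.83 (Fgfr1), 0.10 (Fgfr2) and -0.52 (Fgfr3), none past 2-fold. The median of the 7 genes was -0.83 and that of all genes tested -0.40. This median moved to 0.18 with median-of-ratios scaling (size factors from the genes with UMIs in all 5 libraries), under which 24.3% of genes were higher and 18.8% lower. On that scale the 3 ligands were at -1.28 (Fgf2), -2.12 (Fgf18) and -2.51 (Fgf10), and Fgf7 passed 2-fold at 1.26. The dividing cells, 33.5% of d3 post-fracture and 0.0864% of d0, moved with this comparison, and without them Fgf10 was at -2.48.

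From d3 to d5 post-fracture 5 of the 7 genes rose at least 2-fold and 0 fell, where 39.0% of 13602 genes tested were higher and 4.86% lower. The share of higher genes was thus large in this comparison, and the median over all genes tested was 0.70 on the log2 scale, against 1.87 for the 7. Fgfr3 rose 23.7-fold (log2 ratio 4.57, 4.29 to 4.85), Fgf10 rose 13.9-fold (3.79, 3.21 to 4.43) and Fgfr2 rose 9.75-fold (3.28, 3.12 to 3.45). Fgf18 rose 3.65-fold (1.87, 1.65 to 2.09) and Fgf7 2.04-fold (1.03, 0.98 to 1.08). Fgfr1 was at 0.36 and Fgf2 at 0.56. Without dividing cells Fgfr3 was at 12.6 CPM at d5 post-fracture and its log2 ratio was 3.84. The chondrocyte-like cluster of d5 post-fracture described below, which held most Fgfr3 UMIs, was itself rich in dividing cells. Leaving out dividing cells thus also removed chondrocyte-like cells. The d5 post-fracture library is the smallest and the deepest per cell, and 30 of its barcodes over 8000 genes were left out. With median-of-ratios scaling, under which 17.2% of genes were higher, 19.4% lower and the median of all genes was -0.04, 4 genes remained past 2-fold: Fgfr3 (3.83), Fgf10 (3.06), Fgfr2 (2.55) and Fgf18 (1.13). Fgf7 was then at 0.29, Fgf2 at -0.18 and Fgfr1 at -0.37. With the conditions as deposited, no member was past 2-fold in this comparison, and Fgfr3, Fgf10 and Fgf18 had log2 ratios of -0.97, -0.22 and -0.075.

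At d3, the polytrauma and fracture libraries were close over all genes tested (median log2 ratio -0.02), and the 7 members did not stand out from this. In d3 post-polytrauma against d3 post-fracture 0 of 7 members were called, where 4.08% of 13556 genes were higher and 2.47% lower. Fgfr3 came nearest, 1.97-fold lower in polytrauma (log2 ratio -0.97, -1.45 to -0.52), and reached -1.02 with median-of-ratios scaling. Fgf2 was at 0.57 (0.41 to 0.74) and Fgfr1 at 0.37 (0.34 to 0.40). The intervals of Fgfr2 (0.15, -0.06 to 0.36) and Fgf18 (-0.075, -0.33 to 0.18) included 0, and Fgf7 was at 0.21 and Fgf10 at -0.22. With the conditions as deposited the d5 post-fracture library above stands for d3 post-polytrauma, and 5 members were higher.

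At d5 the injuries differed more. In d5 post-polytrauma against d5 post-fracture 5 of 7 members were at least 2-fold lower and 0 higher, where 12.3% of 14476 genes were lower and 2.87% higher. Fgf10 was 18.0-fold lower (log2 ratio -4.17, -4.69 to -3.68), Fgfr3 10.3-fold lower (-3.37, -3.51 to -3.22) and Fgfr2 5.29-fold lower (-2.40, -2.51 to -2.30). Fgf18 was 3.14-fold lower (-1.65, -1.82 to -1.48) and Fgf7 2.42-fold lower (-1.27, -1.32 to -1.23). Fgfr1 was at 0.02 (-0.01 to 0.05) and Fgf2 at -0.60 (-0.77 to -0.43). Without dividing cells, which here too include chondrocyte-like cells of d5 post-fracture, Fgfr3 was at -2.26. With every cell given the same weight Fgfr3 was at -2.54 and Fgf10 at -3.17. The median of the 7 was -1.65 and that of all genes -0.10. This comparison and the one from d3 to d5 post-fracture use the same d5 post-fracture library. As deposited, 1 member was higher and 0 lower, with Fgfr3 at 2.17, Fgfr2 at 0.73 and Fgf18 at 0.29.

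From d3 to d5 post-polytrauma 1 of 7 members rose and 0 fell, where 28.6% of 14574 genes were higher, 6.04% lower and the median of all was 0.50. The one that rose was Fgfr3, 4.51-fold (log2 ratio 2.17, 1.79 to 2.58, and 1.69 with median-of-ratios scaling). Without the chondrocyte-like clusters described below it was at 0.93, within 2-fold. Fgfr2 was at 0.73 and Fgf18 at 0.29. Fgfr1 was at 0.01, Fgf10 at -0.16, Fgf7 at -0.45 and Fgf2 at -0.61, and Fgf2 passed 2-fold at -1.10 with median-of-ratios scaling. As deposited, the library with the most Fgfr3 takes the place of d3 post-polytrauma, 5 members were lower, and Fgfr3 was at -3.37.

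**Figure D2:**
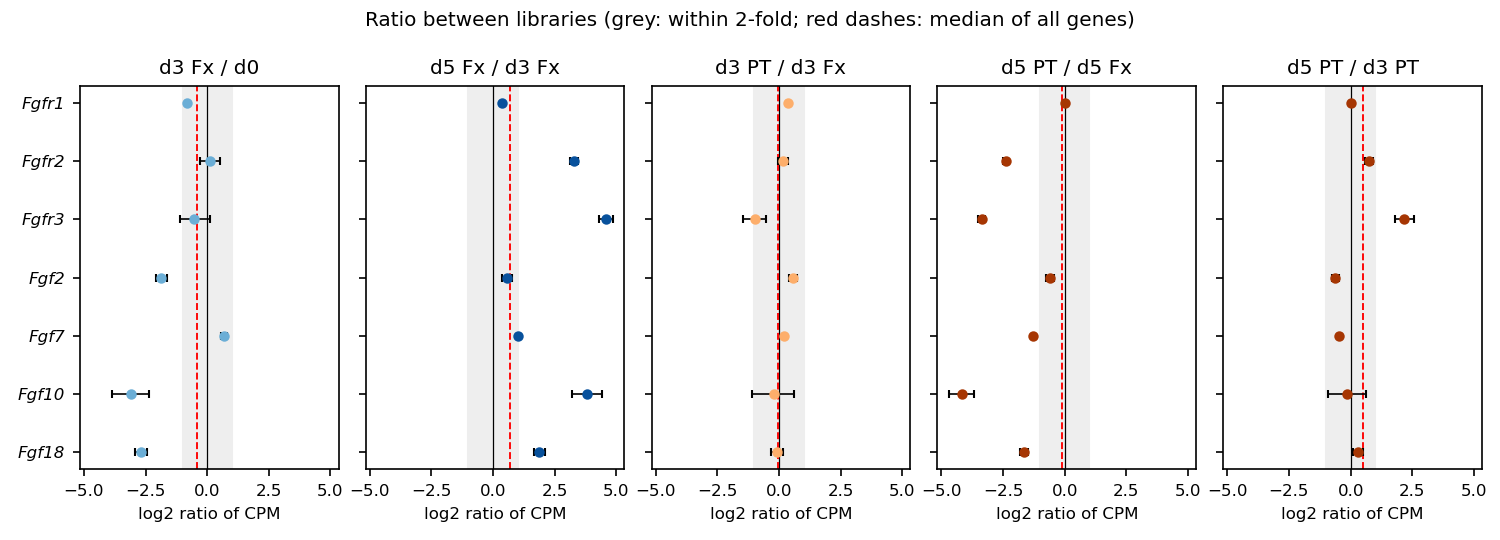
Log2 ratio of CPM of each gene in the 5 comparisons (one panel each), with 95% counting intervals as bars, the range within 2-fold in grey and the median of all genes tested as a red dashed line. Fgfr3, Fgf10 and Fgfr2 lie at 4.57, 3.79 and 3.28 from d3 to d5 post-fracture and at -3.37, -4.17 and -2.40 for d5 post-polytrauma against d5 post-fracture, and Fgfr1 lies between -0.83 and 0.37 in all 5 panels.

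Cells of each library were clustered without reference to the labels, and 42 clusters held at least 50 cells. The FGF genes described here, the genes of the pathway lists below and the naming markers were left out of the variable genes used for clustering. Clusters were made from the same cells, so levels by cluster are a description. A cluster was named from fixed marker lists, of which no FGF gene is a member. Of the 42, 16 were named FAP/MP-like (fibro-adipogenic and mesenchymal progenitors), 2 chondrocyte-like, 3 fibroblast-like, 4 pericyte-like, 5 tenocyte-like and 1 hematopoietic-like, and 11 stayed unnamed. The hematopoietic-like cluster, of d3 post-polytrauma, had 392 cells and also counted 4 FAP/MP and 5 fibroblast markers. In that whole library 141 cells held at least 2 hematopoietic markers, so most cells of the cluster were not hematopoietic by that count. Fgfr1 was found in each of the 42, at 57.2 to 424 CPM. It was highest at d0 in the FAP/MP-like clusters led by Mrgprg and Pi16 (424, 402 to 446) and by Rtp4 and other interferon-induced genes (423), and then in the FAP/MP-like cluster of d3 post-polytrauma led by Ccl8 and Clec3b (375). It was lowest in the chondrocyte-like cluster of d5 post-fracture (57.2, 52.2 to 62.5).

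Fgfr3 was concentrated in chondrocyte-like cells. In the d5 post-fracture library the chondrocyte-like cluster had 179 cells, 12.2% of the library, with a median of 45741 UMIs and with Col2a1, Hapln1 and Col9a3 among its leading genes. Its level of Col2a1, the cartilage collagen, was 8935 CPM, against 69.4 in the other cells of that library. Fgfr3 was at 149 CPM (141 to 157) there and at 1.57 to 7.27 in the other 5 clusters. This cluster held 88.8% of the Fgfr3 UMIs of its library, and 89.4% of its cells had one. In the d5 post-polytrauma library the chondrocyte-like cluster had 358 cells (3.00%) with Fgfr3 at 127 CPM (114 to 142), against 0.632 to 2.89 in the other 9 clusters, and held 58.3% of the Fgfr3 UMIs. Its cells were shallow, with a median of 1400 UMIs, and 238 of them (66.5%) had a barcode that the d5 post-fracture library also uses. Without those cells 120 remained, with Fgfr3 at 136 CPM. Where a barcode was in both d5 libraries, d5 post-polytrauma held a median of 0.0207 of its d5 post-fracture UMIs.

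With both chondrocyte-like clusters left out, Fgfr3 was at 3.67 CPM at d5 post-fracture and 1.13 at d5 post-polytrauma, against 0.591 to 1.66 in the other three libraries. It was then still past 2-fold from d3 to d5 post-fracture (log2 ratio 1.66, 4.57 with them) and between the d5 libraries (-1.70, -3.37 with them), and no longer from d3 to d5 post-polytrauma (0.93, 2.17 with them). The same step left Fgfr2 at 33.4 and 6.39, Fgf7 at 141 and 49.9, Fgf18 at 11.3 and 3.07 and Fgf10 at 4.43 and 0.200, so d5 post-fracture remained above d5 post-polytrauma in these genes without the chondrocyte-like cells.

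In both chondrocyte-like clusters Fgfr3 held the largest share of the receptor UMIs, and in every other cluster of at least 50 cells Fgfr1 did. At d5 post-fracture Fgfr3 held 59.2% (57.1% to 61.3%) of their receptor UMIs, Fgfr1 22.8% and Fgfr2 18.0%. At d5 post-polytrauma the shares were 51.7% (47.7% to 55.8%), 36.2% and 12.0%. Fgfr1 was at 57.2 CPM in the chondrocyte-like cells of d5 post-fracture and at 233 in the other cells of the library. Of the 179 cells, 122 (68.2%) held UMIs of both Fgfr1 and Fgfr3, 38 (21.2%) Fgfr3 without Fgfr1 and 14 (7.82%) Fgfr1 without Fgfr3. These are shares of cells with a UMI at a median of 45741 UMIs, with no background share at hand, and free RNA was not tested. In the shallow chondrocyte-like cells of d5 post-polytrauma 47 of 358 (13.1%) held both, 51 (14.2%) Fgfr3 without Fgfr1 and 65 (18.2%) Fgfr1 without Fgfr3. All d5 post-polytrauma shares given here include the 238 cells whose barcode the d5 post-fracture library also uses. The other 120 cells held 292 of the 314 Fgfr3 UMIs, and cells with both receptors were not counted among them alone. Fgfrl1, which encodes a receptor-like protein without a kinase domain, was at 353 CPM in the chondrocyte-like cells of d5 post-fracture and at 190 in those of d5 post-polytrauma. The ligands were low in the chondrocyte-like cells of d5 post-fracture: Fgf7 was at 12.8 (141 in the other cells), Fgf2 at 2.82, Fgf18 at 1.06 and Fgf10 at 0.235. Of the targets of FGF signalling, Spry1 was at 2.82 CPM there, Spry2 at 20.2, Spry4 at 0.352, Dusp6 at 17.0, Etv4 at 0.117 and Etv5 at 0.587. The values of Spry4, Etv4 and Etv5 rest on 3, 1 and 5 UMIs. In the other clusters of at least 50 cells of that library Spry1 was at 13.7 to 51.3 and Spry2 at 44.7 to 121. Dusp6 was as low in the FAP/MP-like cluster led by Sfrp4 (16.1), and Etv4 in the fibroblast-like cluster led by Gzme (0.134).

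**Figure D3:**
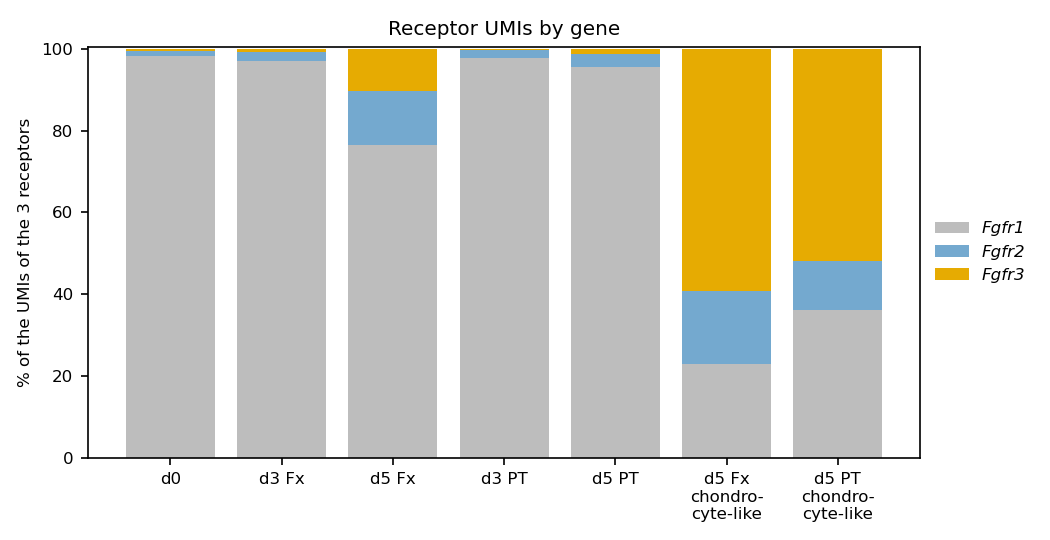
Share of the UMIs of Fgfr1, Fgfr2 and Fgfr3 held by each receptor, in percent, in the 5 libraries and in the chondrocyte-like clusters of both d5 libraries. Fgfr1 holds 76.5% to 98.2% in the libraries, and Fgfr3 holds 59.2% and 51.7% in the chondrocyte-like clusters.

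Fgfr2 was broad where it was high. In the 6 clusters of d5 post-fracture it lay between 18.7 and 56.3 CPM, above each cluster of d3 post-fracture (1.48 to 6.56) and of d3 post-polytrauma (1.37 to 6.86). The order within d5 post-fracture began with a fibroblast-like cluster of 195 cells led by the granzyme genes Gzme and Gzmb (56.3, 51.0 to 61.9), followed by the chondrocyte-like (45.2), a tenocyte-like (43.1) and an FAP/MP-like cluster led by Egfl6 (37.8). The lowest was the FAP/MP-like cluster led by Sfrp4 and Pi16 (18.7). At d5 post-polytrauma the chondrocyte-like cluster (29.6) and the FAP/MP-like cluster led by Penk and Eln (19.8) were highest. At d0 an unnamed cluster led by Wif1 and Chad held 50.8% of the 59 Fgfr2 UMIs (18.9 CPM). This cluster of 305 cells counted 4 tenocyte markers and stayed unnamed by the naming rule.

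Fgf7 peaked in the same granzyme-led cluster of d5 post-fracture, at 362 CPM (349 to 376), where 97.9% of cells held a UMI. These 195 cells, 13.3% of the library, held 43.4% of its Fgf7 UMIs. Their Fgfr1 level was 273 CPM, so the cluster combined high Fgf7, Fgfr1 and Fgfr2. The next highest were the Egfl6-led (139) and Sfrp4-led (119) FAP/MP-like clusters of the same library and, at d0, an FAP/MP-like cluster led by Inmt, Gdf10 and Hhip (114, 99.2 to 131). Fgf7 was itself among the 10 leading genes of this d0 cluster. Pericyte-like clusters were lower, with 3.71 CPM at d0, 35.0 at d3 post-fracture, 9.80 at d3 post-polytrauma and 8.67 at d5 post-polytrauma. At d3 post-fracture a cluster of 69 cells led by Myh11, with 5 pericyte markers, stayed unnamed and had Fgf7 at 3.26. The d3 post-fracture value of 35.0 thus depends on the naming.

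Fgf10 and Fgf18 were highest in the FAP/MP-like cluster of d5 post-fracture led by Sfrp4 and Pi16 (295 cells). Fgf10 was at 14.8 CPM (12.4 to 17.6) there, with 68.0% of the library's UMIs, and Fgf18 at 33.5 (29.8 to 37.5), with 59.8%. At d0 the Fgf10 UMIs were few, with 14 in the Cyp2f2-led cluster (7.97 CPM) and 11 in the Inmt-led cluster (6.20). Fgf18 at d0 was spread over the Wif1-led (25.3), the Mrgprg-led (21.9) and the pericyte-like cluster (21.6). Fgf2 was highest at d0, at 43.9 CPM (37.2 to 51.4) in the Mrgprg-led cluster, which held 49.5% of its UMIs, and at 30.1 in the Rtp4-led one. The clusters highest in Fgf2 after injury were FAP/MP-like, the Sfrp4-led one of d5 post-fracture (17.2) and the Ccl8-led one of d3 post-polytrauma (14.9).

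The FAP/MP-like clusters were unequal parts of the libraries. They held 3287 of 4632 cells at d0, 1690 of 5589 at d3 and 549 of 1468 at d5 post-fracture. After polytrauma they held 820 of 6201 cells at d3 and 7254 of 11941 at d5. At d3 post-fracture the clusters led by Ass1 (1529 cells) and Acan (1613 cells) stayed unnamed and are left out here. When only the FAP/MP-like clusters were summed, Fgf7 was at 49.0 CPM at d0, 90.7 at d3 post-fracture, 129 at d5 post-fracture, 65.5 at d3 post-polytrauma and 56.3 at d5 post-polytrauma. Fgfr2 was then at 1.90, 6.12, 28.3, 5.14 and 8.54. Fgf18 was at 15.4, 4.78, 24.0, 7.58 and 3.48 and Fgf10 at 3.45, 0.999, 9.32, 0.135 and 0.265. By CPM d5 post-fracture was the highest for these 4 genes within the FAP/MP-like clusters. For Fgf18 this turns the order of the whole libraries, where d0 was above d5 post-fracture (17.0 against 9.60). For Fgf7 the ranking within these clusters was not recomputed with median-of-ratios scaling. In all cells that scaling put the Fgf7 log2 ratio from d3 to d5 post-fracture at 0.29. The median of all genes by CPM in that comparison was 0.70. d3 post-polytrauma had 1 FAP/MP-like cluster (820 cells), so its values rest on that cluster. A cluster of 1533 cells in the same library, led by Cxcl10, Sfrp1 and Saa3, had 4 FAP/MP markers and stayed unnamed, with Fgf7 at 94.3 CPM and 16 of the library's 24 Fgf10 UMIs, so the d3 post-polytrauma values of 65.5 and 0.135 depend on the naming.

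**Figure D4:**
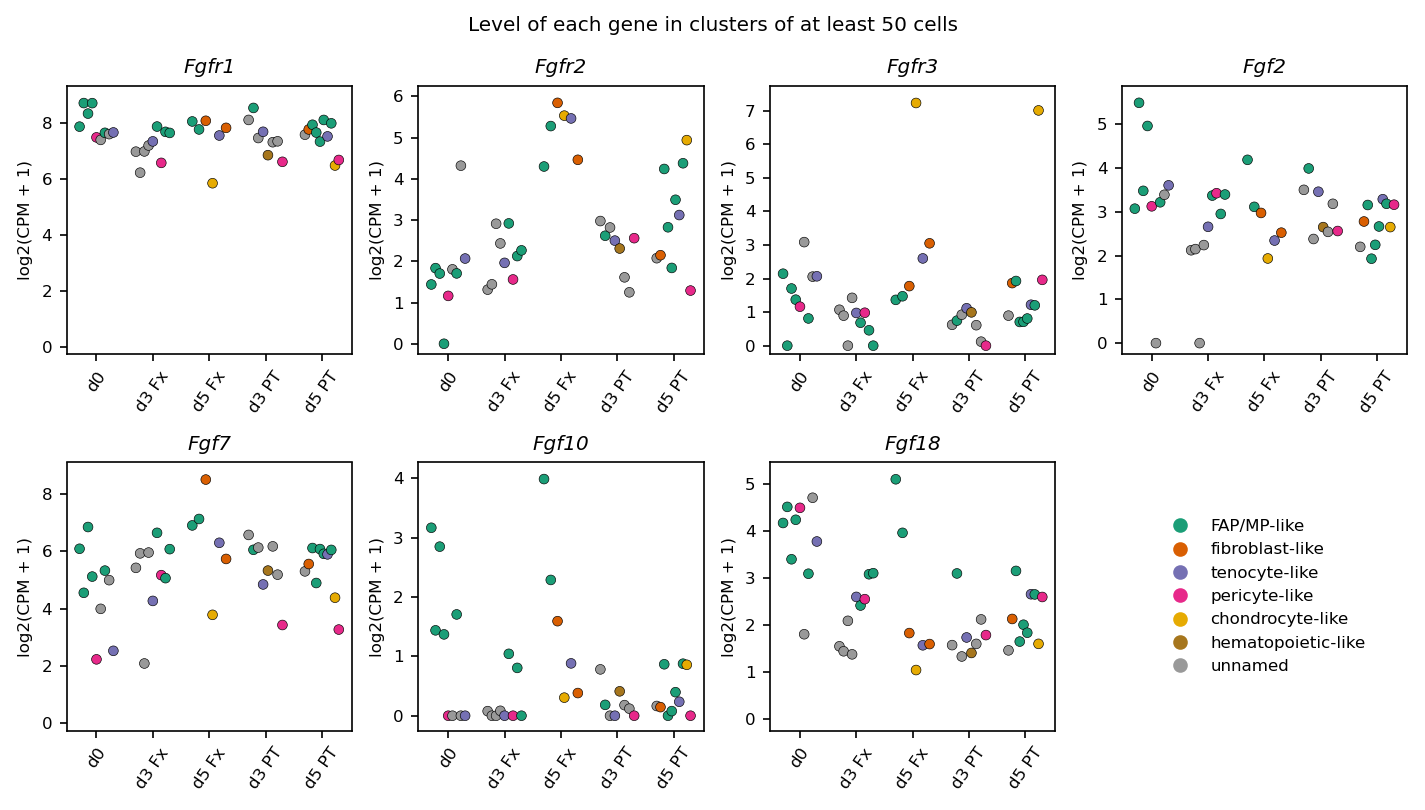
Level of each gene in each of the 42 clusters of at least 50 cells, as log2(CPM + 1), by library, 1 point per cluster. Fgfr3 is high in the chondrocyte-like clusters of d5 post-fracture (149 CPM) and d5 post-polytrauma (127), while Fgfr1 spans 57.2 to 424 over all clusters.

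The genes most alike in pattern were found by Pearson's r of log2(CPM + 1) over the 42 clusters among 9760 genes with at least 10 CPM in at least 3 clusters. The clusters share libraries and depth, so r is a description. Fgfr1 was most like Tgfbr3 (r = 0.83), Frmd6 (0.82), Ier5 (0.80), Med13 and Jak1 (0.79 each), and Fgfr2 most like Fgfrl1 (0.89), Matn4 (0.87), Aqp5 and Kcns1 (0.86 each) and Galnt9 (0.85). Fgfr3 was most like Hapln1 (0.90), Col2a1 (0.89), Pcp4 (0.89), Scrg1 (0.88) and Col9a3 (0.88), among which Hapln1, Col2a1 and Col9a3 encode cartilage matrix proteins. Fgf2 was most like Heg1 (0.74), Rora (0.72), Erap1 (0.70), Tnfrsf1b and Stam (0.69 each). Fgf7 was most like Masp1 (0.81), Osr1 and Tspan11 (0.80 each), Dram1 (0.79) and Fst (0.78), of which Fst encodes the activin antagonist follistatin. Fgf10 was most like Man1a (0.76), Nov and Cdon (0.74 each), Kcp and Cyp4v3 (0.72 each), and Fgf18 most like Mknk2 (0.86), 1700019D03Rik (0.82), Tnxb (0.81), Arhgap20 and Timp3 (0.80 each). Among the members themselves r was 0.63 for Fgf2 with Fgf18, 0.55 for Fgfr1 with Fgf2, 0.54 for Fgf10 with Fgf18 and 0.49 for Fgfr2 with Fgfr3. Fgfr1 and Fgfr3 had r = -0.38, and Fgf7 and Fgf18 had -0.05.

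The rest of the pathway was read from 3 lists: 20 other FGF receptors and ligands, 19 signal transducers, targets and feedback inhibitors, and 22 co-receptors, carriers and heparan sulfate genes. From d0 to d3 post-fracture 5 of the 7 other receptors and ligands with enough UMIs fell and 0 rose (median log2 ratio -3.14, against -0.40 for all genes). Fgf1, a ligand of each of the receptors, fell from 32.9 to 0.490 CPM (67.1-fold). Within clusters its highest levels were nearer each other. They were 100 CPM in the pericyte-like cluster of d0 and 78.2 in the Myh11-led cluster of d3 post-fracture. These clusters made up 16.3% and 1.23% of the cells of their libraries, and the part of cell mix in the fall was not tested. Of 18 signalling genes 9 fell and 0 rose (median -1.01). Among the feedback inhibitors Spry1 fell from 73.9 to 9.70 CPM, Spry2 from 274 to 114 and Spry4 from 22.3 to 1.79, and Il17rd had a log2 ratio of -3.40. Among the transcription factors Etv1 fell from 24.0 to 1.18 CPM, and Etv4 and Etv5 had log2 ratios of -1.73 and -1.29. Dusp6 was at -0.94, within 2-fold. Median-of-ratios scaling left 6 of the 18 signalling genes lower, where 18.8% of all genes were lower and 24.3% higher. Of 18 co-receptor genes 3 rose and 4 fell by CPM, where 13.0% of all genes were higher and 31.1% lower, and 7 were higher and 2 lower with median-of-ratios scaling. The heparan sulfate carriers moved in both directions, Gpc3 from 271 to 10.2 CPM and Sdc1 from 12.1 to 62.2.

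From d3 to d5 post-fracture 7 of 8 other receptors and ligands rose and 1 fell (median log2 ratio 2.35, against 0.70 for all genes). Fgfrl1 rose from 10.4 to 125 CPM (12.0-fold), Fgfr4 had a log2 ratio of 3.41 and Fgf23, a hormone of phosphate balance, 4.21 on 48 UMIs against 5. The gene that fell was Fgf21 (-1.43). Of 19 signalling genes 12 rose and 0 fell, a count that became 3 higher and 3 lower with median-of-ratios scaling. Over all genes tested, 39.0% rose and 4.86% fell by CPM, and 17.2% and 19.4% with that scaling. Il17rd was at 2.26, Etv1 at 2.15, Spry1 at 1.74, Frs2 at 1.57, Spry4 at 1.51 and Dusp6 at 1.23, while Spry2 (-0.58), Etv4 (-0.40) and Etv5 (-0.03) were within 2-fold. Of 19 co-receptor genes 12 rose and 0 fell (6 and 0 with median-of-ratios scaling), with Fgfbp3, a carrier that binds FGFs, at 3.37 and Gpc1 at 2.19.

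Between injuries at d3 few list genes differed, as was the case over all genes tested (4.08% higher and 2.47% lower). In d3 post-polytrauma against d3 post-fracture, 0 of 4 other receptors and ligands, 1 of 18 signalling genes (Spry3, 1.06) and 0 of 18 co-receptor genes passed 2-fold, counted in both directions. Of the targets, Etv4 was at 0.95, Etv5 at 0.64, Spry4 at 0.18, Spry2 at 0.06, Dusp6 at -0.71 and Spry1 at -0.87. In d5 post-polytrauma against d5 post-fracture 6 of 8 other receptors and ligands were lower and 1 higher (median -2.19, against -0.10 for all genes). Of all genes tested here, 12.3% were lower and 2.87% higher. Fgf23 was at -3.64, Fgfr4 at -2.64, Fgf1 at -2.24 and Fgfrl1 at -2.14, and Fgf21 was at 1.04. Of the 19 signalling genes 2 were lower (Frs3, -1.67, and Spry2, -1.22) and 1 higher (Etv4, 1.91), with a median of 0.03. Spry1 (-0.48), Spry4 (-0.46), Dusp6 (-0.71) and Etv5 (0.65) were within 2-fold. Of 19 co-receptor genes 0 were higher and 2 lower (Gpc3, -1.19, and Sdc4, -1.06), and 0 in either direction with median-of-ratios scaling.

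From d3 to d5 post-polytrauma 1 of 5 other receptors and ligands rose (Fgfrl1, log2 ratio 2.03) and 0 fell. Of 19 signalling genes 10 rose and 1 fell (3 and 2 with median-of-ratios scaling). The shares over all genes tested were 28.6% higher and 6.04% lower by CPM, and 14.8% and 11.8% with that scaling. Spry1 was at 2.13, Spred3 at 1.69, Etv1 at 1.58 and Dusp6 at 1.24, and Spry2 fell by 1.85 on the log2 scale. Spry4 (0.86), Etv4 (0.57) and Etv5 (-0.03) were within 2-fold. Of 20 co-receptor genes 8 rose and 0 fell (3 and 0 with median-of-ratios scaling), with Fgfbp3 at 2.97 and Gpc1 at 1.90. Among all clusters the tenocyte-like cluster of d0 led by Chodl had the highest Spry1 (255 CPM), Dusp6 (288), Etv4 (107) and Spry4 (57.4), and the Rtp4-led cluster of d0 the highest Spry2 (471). The Wif1-led cluster of d0, unnamed but also with 4 tenocyte markers, was lower. It had Spry1 at 34.7 CPM, Dusp6 at 59.3, Etv4 at 1.26 (2 UMIs) and Spry4 at 8.84.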

How the data were processed

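Raw counts of UMIs (unique molecular identifiers) for each gene and barcode were deposited by the authors for 5 libraries of 2 pooled mice each. The authors aligned reads to mm10 with Cell Ranger, and the matrix headers name version 3.1.0. Seurat 3.1.2 is named per the labels, in the submitters' processing notes.

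Barcodes with 350 to 8000 genes, under 20% mitochondrial UMIs and at least 1000 UMIs were retained. UMIs were summed over cells and divided by the library total (CPM). Intervals at 95% were exact Poisson for levels, exact binomial for shares and exact conditional for ratios. A gene was called at a 2-fold difference when both libraries together held at least 50 UMIs, and percentages of all genes called used the same rule. With 1 library per condition no test was made. Shares of cells were computed after drawing 2000 UMIs per cell, and cells with fewer UMIs were left out of them. Possible doublets were kept, and left out as an alternative.

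Each library was clustered in Scanpy 1.11.5 (2000 variable genes, 20 components, 20 neighbours, resolution 0.5). A name needed at least 3 markers of a list, each in at least 10% of cells, above the mean of the other clusters. Where several lists qualified, the fibroblast name was dropped and the list with the largest share of its markers was taken. A cluster stayed unnamed on a tie, where another list had more markers among the 10 leading genes, or where its depth was low and it had no leading marker. Python 3.11.15, numpy 2.4.6, pandas 2.3.3, SciPy 1.17.1 and igraph 0.11.9 were used. The calculation of the ratios was checked on simulated counts with known folds and counting error only. Those counts had no variation between mice or libraries, so the check does not cover it, nor the choice of scaling. All 7 members are named, and of each pathway list up to 4 genes past 2-fold per comparison by size, plus Dusp6, Spry1, Spry2, Spry4, Etv4 and Etv5. Fgf21, which moved against its list, the clusters described and the 3 sequences were chosen after their values were seen. The members, lists and comparisons were chosen with earlier results of these data known. Alternatives were the scaling, the deposited labels, the minimum of UMIs, shared barcodes, doublets, equal weight of cells, hematopoietic cells, dividing cells, the thinning depth and the clustering resolution. Leaving out the upper limit of genes, leaving out chondrocyte-like clusters, using FAP/MP-like clusters alone and leaving shared barcodes out of a cluster were chosen after seeing the data.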

Additional observations from a re-analysis of the deposited data

How the results depend on the processing

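Counts of members past 2-fold were recomputed under 110 alternatives, of which 96 left the count within 1.5 times and 14 moved it. The deposited labels accounted for 6 of these. With them, d5 against d3 post-fracture had 0 higher (5 with the conditions used), d3 post-polytrauma against d3 post-fracture 5 higher (0), d5 post-polytrauma against d5 post-fracture 1 higher (0) and 0 lower (5), and d5 against d3 post-polytrauma 0 higher (1) and 5 lower (0). They also reversed 7 of 385 ratios: Fgfr3 (-0.97), Fgf10 (-0.22) and Fgf18 (-0.075) in d5 against d3 post-fracture, Fgfr2 (0.73), Fgfr3 (2.17) and Fgf18 (0.29) in d5 post-polytrauma against d5 post-fracture, and Fgfr3 (-3.37) in d5 against d3 post-polytrauma. This follows from the exchange of 2 libraries. Only a ratio past 2-fold with the conditions used could count as reversed. Median-of-ratios scaling gave 1 higher in d3 post-fracture against d0 (Fgf7), 1 lower in d3 post-polytrauma against d3 post-fracture (Fgfr3) and 1 lower in d5 against d3 post-polytrauma (Fgf2), where CPM gave 0. With FAP/MP-like clusters only, where the minimum of 50 UMIs was still set on all cells, the counts were 1 higher in d3 post-fracture against d0 (Fgfr2), 1 lower in d3 post-polytrauma against d3 post-fracture (Fgf10, on 1 UMI against 23), and 0 higher and 2 lower in d5 against d3 post-polytrauma (Fgf2 and Fgf18). Without chondrocyte-like clusters the last comparison had 0 higher.

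With the conditions as used, 350 ratios were recomputed and none past 2-fold changed sign. Some smaller ratios did, such as Fgfr1 (-0.37 to 0.55) in d5 against d3 post-fracture and Fgf18 (-1.12 to 0.43) in d5 against d3 post-polytrauma. Fgfr3 ranged from 1.57 to 4.64 in d5 against d3 post-fracture and from -3.44 to -0.79 in d5 post-polytrauma against d5 post-fracture, lowest in size without the chondrocyte-like clusters or among FAP/MP-like ones. Fgfr2 ranged from 2.21 to 3.31 in the former, and Fgf10 from -5.14 to -3.17 and Fgf18 from -2.79 to -1.45 in the latter. Counts of pathway genes past 2-fold moved in 28 of 60 alternatives (scaling and deposited labels), and shares of cells with a UMI in 61 of 70 (thinning). Highest cluster levels moved in 34 of 105. At other resolutions the highest Fgfr3 cluster of d5 post-fracture was at 97.2 (resolution 0.3) and 154 CPM (resolution 1.0), and that of Fgf7 at d5 post-polytrauma at 144 (resolution 1.0) against 68.4. At d0 resolution 1.0 gave 652 for Fgfr1, 50.8 for Fgfr2, 75.4 for Fgf2 and 48.6 for Fgf18, and resolution 0.3 gave 69.4 for Fgf7. Fgf10 rests on 24 to 42 UMIs in 3 libraries, so its smaller differences were not detectable at this depth. No paired analysis was possible because each condition has 1 library.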
